A study of Homo sapiens with 12 samples.

Results

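The genes described here are 7 members of insulin and insulin-like growth factor (IGF) signalling, of 20033 protein-coding genes annotated on the autosomes, X and Y: IRS1, IRS2, INSR, IGF1R, IGF2, IGFBP1 and IGFBP3. They were chosen from measured values, namely the number, height and length of the H3K27ac peaks around them in cells with and without HSF1 knockdown, so those values are given as a description with no test. The 6 windows around the genes, with IGFBP1 and IGFBP3 sharing a window, held 65 of 41082 H3K27ac peaks of the siNC list and 90 of 45586 peaks of the siHSF1 list. The gene bodies with 20 kb on either side held 4 of 7147 HSF1 peaks.

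All libraries came from Huh7, a human hepatocellular carcinoma line, and asked where the heat shock transcription factor HSF1 sits on chromatin and what happens to acetylated enhancers when it is depleted. H3K27ac ChIP-seq was made 48 h after lipid transfection with a negative control siRNA (siNC, wild-type genotype) or with an siRNA against HSF1 (siHSF1, HSF1 knockdown), each with its own input library. HSF1 CUT&Tag and H3K27ac CUT&Tag were made from untreated wild-type cells. Each condition had 1 library, so nothing below has a check by replicates, and the labels do not name which of the siRNAs against HSF1 was used for ChIP-seq. The lists hold no measure of HSF1 itself, so the knockdown could not be checked in them. The cell type could not be checked either: of 12 hepatocyte-lineage markers only HNF4A had a peak in the small H3K27ac CUT&Tag list, and of 10 blood, fibroblast and endothelial markers 0 had one.

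Insulin, IGF1 and IGF2 bind the receptor tyrosine kinases INSR and IGF1R. The active receptors phosphorylate the adaptors IRS1 and IRS2, which recruit PI3K and so start the AKT and mTOR arm, while SHC1 and GRB2 lead to RAS and MAPK. IGFBP1 and IGFBP3 are secreted proteins that bind IGFs, and the liver is a main source of circulating IGFs. H3K27ac marks active promoters and enhancers, and dense clusters of such enhancers are called super-enhancers (SEs).

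The HSF1 peaks of the members come first, because their sequences can be shown. HSF1 classically binds the heat shock element, which is built from GAA units in alternating orientation. Of the 7 members, 3 had an HSF1 CUT&Tag peak in the gene body or within 20 kb of it, beside 42.5% of all protein-coding genes. None of the 7 had an HSF1 summit within 1 kb of its annotated start, beside 21.5% of all protein-coding genes. A count of 0 of 7 allows a share of up to 35.4% (upper end of the 95% Wilson interval, which covers counting error only). The members were chosen with earlier results of these data known, so the interval cannot decide whether they differ from the other genes.

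The IRS1 peak (chr2:226722198-226722456 on hg38) lay 8.96 kb past the 3′ end of IRS1 and 77.5 kb from its start, in no annotated gene. IRS1 (ENSG00000169047.6) spans chr2:226731312-226799820 on the minus strand. The peak held 13 tags over its summit (the pileup, not scaled for depth) and had a fold enrichment of 9.72, the ratio of pileup to local background after 1 is added to each. This placed it above 89.5% of HSF1 peaks by enrichment, but above only 48.7% by pileup. No H3K27ac CUT&Tag peak overlapped it, and the nearest such peak to IRS1 lay 2787 kb from the gene. The H3K27ac CUT&Tag library kept only 896393 of 15737890 tags and its list held 1299 peaks, so absence from it says little.

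The IGF1R peak (chr15:98896929-98897546 on hg38) was the broadest of the 4 at 618 bp and lay in an intron, 249 kb from the start of the gene. IGF1R (ENSG00000140443.15) spans chr15:98648539-98964530 on the plus strand. The peak had a pileup of 19 and a fold enrichment of 8.93, above 83.3% of HSF1 peaks. Its summit was within 1 kb of the start of another annotated IGF1R transcript. An H3K27ac CUT&Tag peak (pileup 11, fold enrichment 7.14) overlapped it, and the summits of both were 33 bp apart.

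INSR (ENSG00000171105.14, chr19:7112255-7294414 on hg38, minus strand) held 2 weak HSF1 peaks in an intron, 97.1 kb and 96.4 kb from its start. The peak at chr19:7197265-7197501 had a pileup of 11 and a fold enrichment of 5.26, above 10.0% of HSF1 peaks. The peak at chr19:7197968-7198167 had a pileup of 9 and a fold enrichment of 4.42, above 1.51% of HSF1 peaks. An H3K27ac CUT&Tag peak (pileup 13, fold enrichment 8.14) overlapped the first of these, with its summit 122 bp away. INSR and IGF1R were thus 2 of 7 members with an H3K27ac CUT&Tag peak in the body or within 20 kb, beside 7.41% of all protein-coding genes.

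The sequence within 100 bases of the summit is shown for IRS1, for the higher INSR peak and for IGF1R, since these are the HSF1 sites at the members. Each is read 5′ to 3′ on the plus strand of hg38. Capitals mark the pentamer CCAAT, which reads ATTGG where it lies on the other strand.
IRS1 chr2:226722248-226722448: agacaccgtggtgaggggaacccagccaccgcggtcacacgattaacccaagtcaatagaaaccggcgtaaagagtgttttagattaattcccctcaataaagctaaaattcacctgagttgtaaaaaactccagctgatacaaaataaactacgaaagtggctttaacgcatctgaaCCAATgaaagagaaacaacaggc
INSR chr19:7197234-7197434: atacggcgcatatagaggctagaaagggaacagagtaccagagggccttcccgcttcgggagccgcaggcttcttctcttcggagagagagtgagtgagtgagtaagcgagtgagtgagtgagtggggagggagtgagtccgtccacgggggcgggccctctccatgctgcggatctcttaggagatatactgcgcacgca
IGF1R chr15:98897078-98897278: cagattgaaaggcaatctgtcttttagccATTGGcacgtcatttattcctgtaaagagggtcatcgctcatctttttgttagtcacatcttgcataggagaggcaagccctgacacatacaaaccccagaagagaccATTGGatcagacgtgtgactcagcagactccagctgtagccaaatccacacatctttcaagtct
The IRS1 window held 1 CCAAT, 78 bases after the summit, and the IGF1R window held 2, at 71 bases before and 37 bases after it. The INSR windows held 0. CCAAT, searched on both strands, lay within 100 bases of 30.7% of all 7147 HSF1 summits (95% Wilson interval 29.7% to 31.8%). Of the facing pairs of GAA units, GAANNTTC lay at 2.66% of summits and TTCNNGAA at 3.06%, and neither string occurred in any of the 4 windows of the members. The IRS1 and IGF1R windows were poorer in G and C (42.8% and 45.3%) than the median HSF1 summit (63.2%), while the INSR windows had 58.7% and 66.2%.

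No HSF1 peak lay within 20 kb of IRS2, IGF2, IGFBP1 or IGFBP3. The nearest to IRS2 was 328 kb away and was one of high enrichment (pileup 115, fold enrichment 30.4). For IGF2 the nearest was 242 kb away (fold enrichment 7.75). For IGFBP1 and IGFBP3 the same peak (pileup 29, fold enrichment 7.18) was nearest, at 74.8 kb and 98.6 kb. Outside the 20 kb limit, the next peak was 36.2 kb from IRS1 (fold enrichment 7.56), 42.9 kb from INSR (5.63) and 167 kb from IGF1R (7.14). Promoter sequences of RefSeq (GRCh38.p14, 250 bases before to 50 after the start) were at hand for IRS1, IRS2, INSR, IGF1R and IGFBP3. Of these 5, the IRS2 promoter held CCAAT, at 2 places, beside 34.6% of 35116 RefSeq promoters. GAANNTTC and TTCNNGAA were in 0 of the 5, beside only 6.77% and 7.74% of RefSeq promoters, so this 0 says little.

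Of the 59 other genes in the pathway list 18 (30.5%, 95% Wilson interval 20.3% to 43.1%) had an HSF1 summit at their start, a range that overlaps that of the members. In the whole list of 66 pathway genes, 18 (27.3%, 95% Wilson interval 18.0% to 39.0%) had a summit within 1 kb of the start. This range includes the 21.5% of all protein-coding genes. The list was chosen with earlier results of these data known, so the interval cannot decide whether the list differs from them. The 18 were all intracellular components. They were 3 of 6 adaptors, 6 of 12 genes of the PI3K-AKT-mTOR arm, 2 of 10 of the RAS-MAPK arm, 3 of 10 negative regulators and 4 of 11 targets. Of 3 ligands, 4 receptors, 7 binding proteins and 3 IGF2 mRNA-binding proteins, 0 had one. The 95% Wilson intervals of these roles reach up to 56.1%, 49.0%, 35.4% and 56.1%, so they all include 21.5%. Among the other roles only the interval of the PI3K-AKT-mTOR arm (25.4% to 74.6%) lies above it. The limit from the choice of the list holds for each role too.

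The highest of these promoter peaks was at GSK3B, a kinase that AKT inhibits (pileup 59, fold enrichment 10.8). The other target among the top 10 was its paralogue GSK3A (fold enrichment 7.92). The negative regulators were led by PHLPP1, a phosphatase of AKT (9.06), and PTPN1, a phosphatase of INSR (8.33). In the PI3K arm the peaks at PIK3R2, a regulatory subunit of PI3K, at RHEB, the GTPase that activates mTOR, and at MTOR had fold enrichments of 8.78, 8.02 and 7.89. MAP2K1, the kinase above ERK, had 8.42, and the adaptors GRB2 and SHC1 had 7.92 and 7.54. Lower peaks were at GAB1, PIK3CA, AKT2, RPS6KB1, TBC1D4 and SREBF1, among others. An H3K27ac CUT&Tag peak overlapped the promoter peak at PIK3R2 and RPS6KB1 only, in a list of just 1299 peaks, so its absence elsewhere says little.

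**Figure D1:**
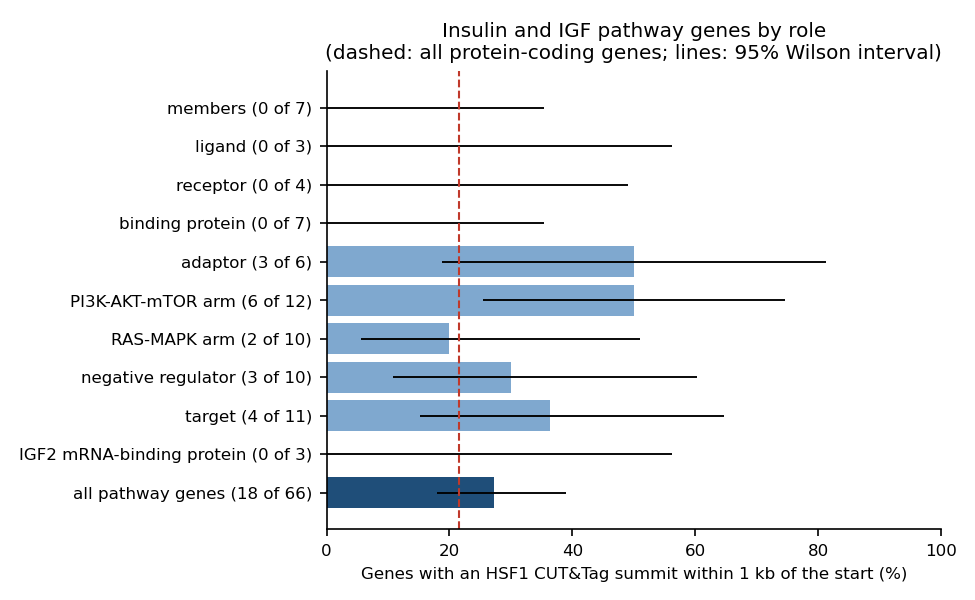
Share of genes (x axis, percent) with an HSF1 CUT&Tag summit within 1 kb of their start, by role in the pathway (y axis, counts in brackets), with 95% Wilson intervals as lines and the share of all protein-coding genes dashed. The members, ligands, receptors and binding proteins stand at 0, and the adaptors (3 of 6) and the PI3K-AKT-mTOR arm (6 of 12) stand highest.

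The H3K27ac ChIP-seq lists are on hg19 and are never set beside the hg38 positions above. The siNC library kept 9795121 of 13140316 tags after removal of duplicates, and the siHSF1 library kept 10793650 of 14979176. Tags were extended to 297 bp in siNC and to 175 bp in siHSF1, and a longer extension by construction gives longer peaks and higher pileups. Over the whole lists, siHSF1 had 1.11 times as many peaks as siNC, which covered 0.577 times the length and held 0.388 times the summed signal (pileup above background, scaled to library depth, times peak length). These ratios are the background for the members, and the part of the extension in the members' own values was not tested.

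IRS1, the adaptor that carries the insulin signal to PI3K, had the densest acetylation of the members, with the largest share of its window under peaks in both lists. The siNC list held 18 peaks in its 140 kb window (chr2:227560000-227700000), covering 31.1 kb or 22.2% of it. The siHSF1 list held 40 peaks, covering 22.8 kb or 16.3%. The number in siHSF1 was thus 2.22 times that in siNC, beside 1.11 times over the whole lists, while the covered length was 0.734 times and the summed signal 0.420 times that of siNC. Both latter ratios were above those of the whole lists. Of the 40 siHSF1 peaks, 32 lay in regions that also held a siNC peak, so the ratio of number is not a count of new sites. Peaks were shorter after knockdown, with a median of 875 bp in siNC and 394.5 bp in siHSF1, and with a longest peak of 4412 bp and 2815 bp. Over the whole lists the median length was 575 bp in siNC and 334 bp in siHSF1.

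The IRS1 peaks lay in 3 groups with gaps of more than 10 kb between them. In the group at chr2:227591787-227606689 the number went from 7 to 14 and the highest fold enrichment from 19.6 to 12.8. In the group at chr2:227619141-227640439 the number went from 6 to 13 and the highest fold enrichment from 10.9 to 9.70. In the group at chr2:227654214-227666465 the number went from 5 to 13 and the highest fold enrichment from 11.2 to 7.66. All 3 groups thus had more peaks and a lower top in siHSF1. Their summed signal was 0.340, 0.397 and 0.564 times that of siNC, on either side of the whole-list ratio.

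**Figure D2:**
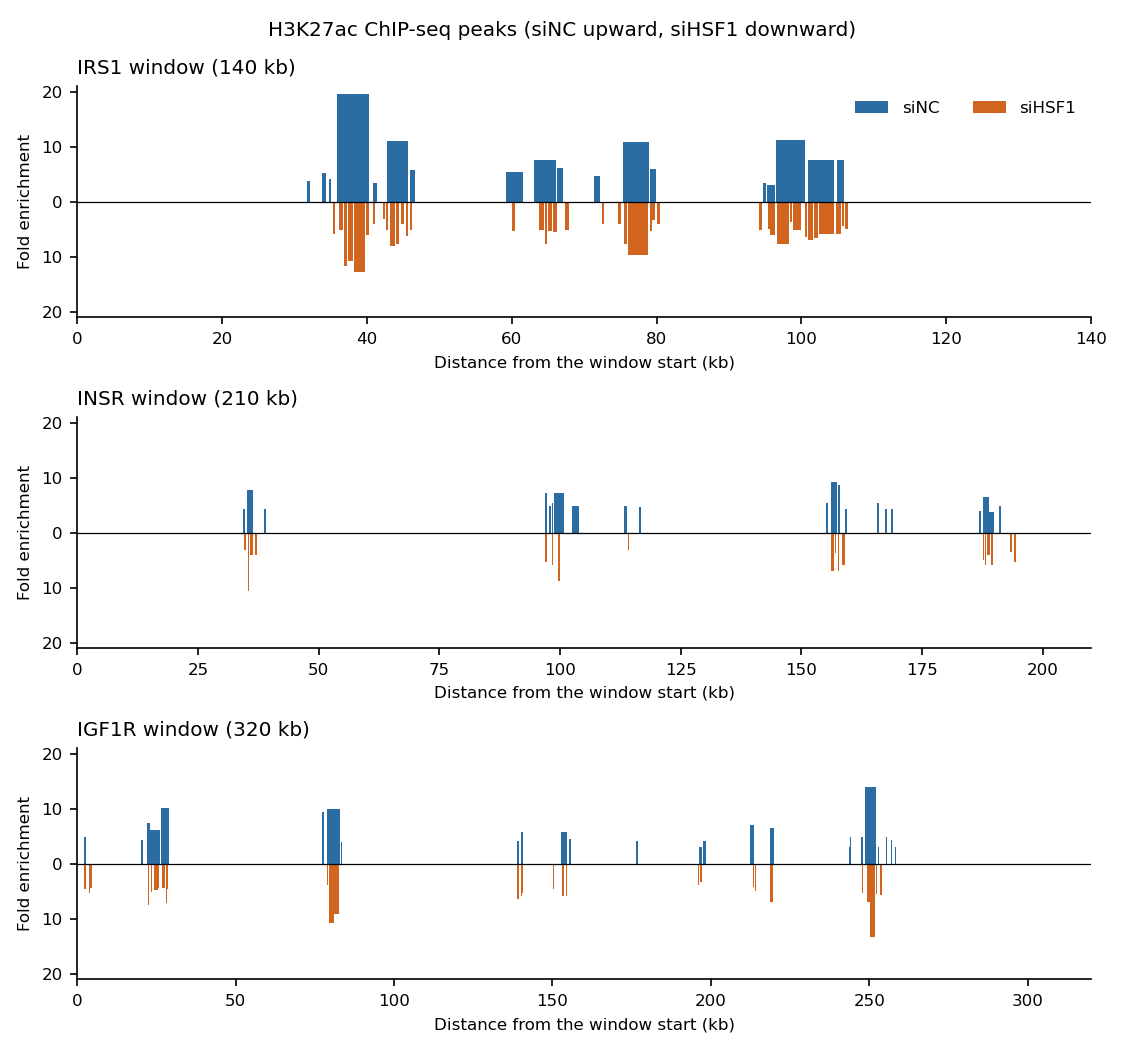
H3K27ac ChIP-seq peaks at IRS1, INSR and IGF1R, with the distance from the window start on the x axis (kb) and fold enrichment on the y axis, siNC upward and siHSF1 downward. Each bar is a peak drawn at its own position and length, with a least drawn width of 0.3 kb. At IRS1, 18 siNC bars face 40 siHSF1 bars, most of them shorter, in the same 3 groups.

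Merging overlapping peaks gave 26 regions at IRS1, of which 12 (46.2%) were shared by both lists, 6 (23.1%) had a siNC peak only and 8 (30.8%) a siHSF1 peak only. Over all 51253 merged regions, 38.7% were shared, 38.7% had a siNC peak only and 22.6% a siHSF1 peak only. The 12 siNC peaks of the shared IRS1 regions faced 32 siHSF1 peaks, 2.67 per region beside 1.71 over all shared regions. The highest siNC peak, at chr2:227595920-227600331, was 4412 bp long with a pileup of 40 and a fold enrichment of 19.6, above 99.6% of siNC peaks. In siHSF1 5 peaks lay in the same region, the highest with a pileup of 24 and a fold enrichment of 12.8, above 97.2% of siHSF1 peaks.

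That region had the largest fall at IRS1. It was 1.54-fold lower in siHSF1, or -0.62 on the log2 scale, with a counting interval of -1.35 to 0.11. The largest rise was at chr2:227655235-227656418, from 3.08 to 6.12 in fold enrichment, 1.99-fold higher, although its pileup went from 14 to 11. These were the only IRS1 regions past 1.5-fold, 1 of 12 lower and 1 of 12 higher, beside 10.3% lower and 11.0% higher of all 19826 shared regions. In all, 9 of the 12 regions were lower and 3 higher, with a median of -0.14 on the log2 scale beside -0.01 over all shared regions. The count turns with the scale: 12 of the 12 were lower by pileup per tag, 6 per tag and fragment length and 5 by pileup over background without the added 1. The whole list turned in the same directions. Of all 19826 shared regions, 9990 were lower by fold enrichment and 17974 per tag. Per tag and fragment length 5577 were lower, and 6217 without the added 1. Pileups of this size give counting intervals that hold 0 for every shared region at IRS1.

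**Figure D3:**
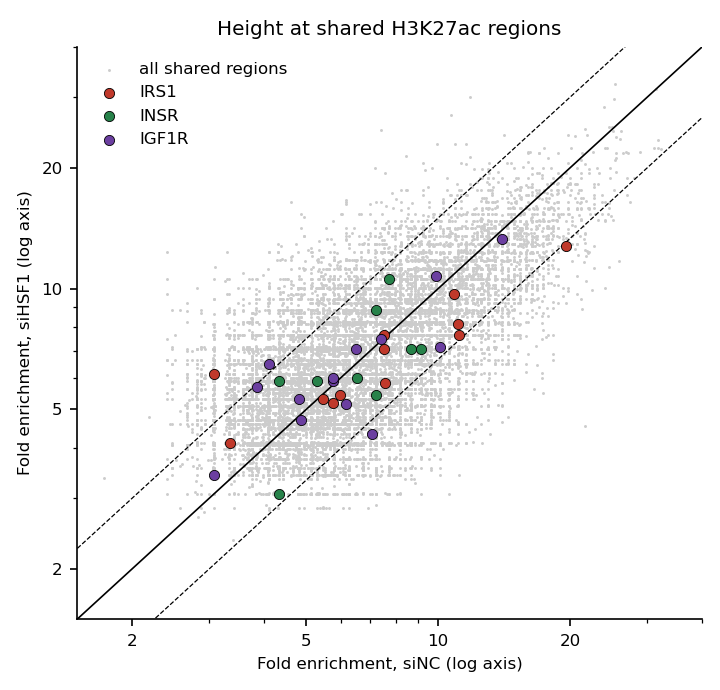
Fold enrichment of the highest siNC peak (x axis, log scale) and of the highest siHSF1 peak (y axis, log scale) at regions with a peak of both lists, with IRS1, INSR and IGF1R in colour over all 19826 regions in grey. The solid line is equality and the dashed lines are 1.5-fold; 2 regions of the 3 genes lie below the lower dashed line and 2 above the upper one.

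INSR, the insulin receptor, had less of its window under peaks than IRS1 in both lists. Its 210 kb window (chr19:7100000-7310000) held 21 peaks covering 14.3 kb (6.82%) in siNC and 18 peaks covering 6.97 kb (3.32%) in siHSF1. The ratios of number (0.857), covered length (0.487) and summed signal (0.338) were all below those of the whole lists. The number turned in direction when fold enrichment had to reach 5, with 9 siNC and 11 siHSF1 peaks (ratio 1.22). The whole-list ratio at that limit was not worked out, so this ratio has no background beside it. The highest siNC peaks were at chr19:7256077-7257317 (pileup 18, fold enrichment 9.15) and chr19:7257515-7257998 (17 and 8.66). The highest siHSF1 peaks were at chr19:7135345-7135659 (17 and 10.6) and chr19:7199547-7199974 (14 and 8.83), so the order of the groups of peaks was not the same in the lists.

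Of 24 INSR regions, 9 (37.5%) were shared, 11 (45.8%) had a siNC peak only and 4 (16.7%) a siHSF1 peak only. Among the 9 shared regions 5 were lower and 4 higher in siHSF1 (7 lower per tag, 3 per tag and fragment length, 4 without the added 1), and 0 passed 1.5-fold in either direction. The counts over all shared regions, given for IRS1, turned in the same directions with the scale. The largest fall was at chr19:7134358-7135002, from 4.32 to 3.08 (-0.49 on the log2 scale, counting interval -1.78 to 0.80). The largest rise was at the neighbouring chr19:7135169-7136474, from 7.70 to 10.6 (0.46, -0.54 to 1.46). The INSR median was -0.12 on the log2 scale.

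IGF1R, the receptor for IGF1 and IGF2, was close to the whole lists in each measure. Its 320 kb window (chr15:99190000-99510000) held 26 peaks covering 27.5 kb (8.59%) in siNC and 30 peaks covering 16.2 kb (5.05%) in siHSF1. The ratios were 1.15 for number, 0.588 for covered length and 0.378 for summed signal. With the window shortened by 10% at either end the number turned in direction, with 21 siNC and 20 siHSF1 peaks (ratio 0.952). The highest peak of both lists was in the same region, chr15:99438785-99441981, with a pileup of 29 and a fold enrichment of 14.0 in siNC and with 25 and 13.3 in siHSF1. The next siNC peak by fold enrichment reached 10.1 and the next siHSF1 peak 10.7.

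Of 33 IGF1R regions, 14 (42.4%) were shared, 12 (36.4%) had a siNC peak only and 7 (21.2%) a siHSF1 peak only. Among the shared regions 5 were lower and 9 higher, with a median of 0.05 on the log2 scale. By pileup per tag 12 of the 14 were lower, but 3 per tag and fragment length and 3 without the added 1. Here too the counts over all shared regions turned in the same directions. The largest fall was at chr15:99402482-99403577, from 7.08 to 4.35 (-0.70, counting interval -2.01 to 0.61) with pileups of 14 and 7. The largest rise was at chr15:99328829-99329528, from 4.11 to 6.47 (0.66, interval from -0.64 to 1.96) with pileups of 9 and 10. These were 1 of 14 regions past 1.5-fold in each direction.

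**Figure D4:**
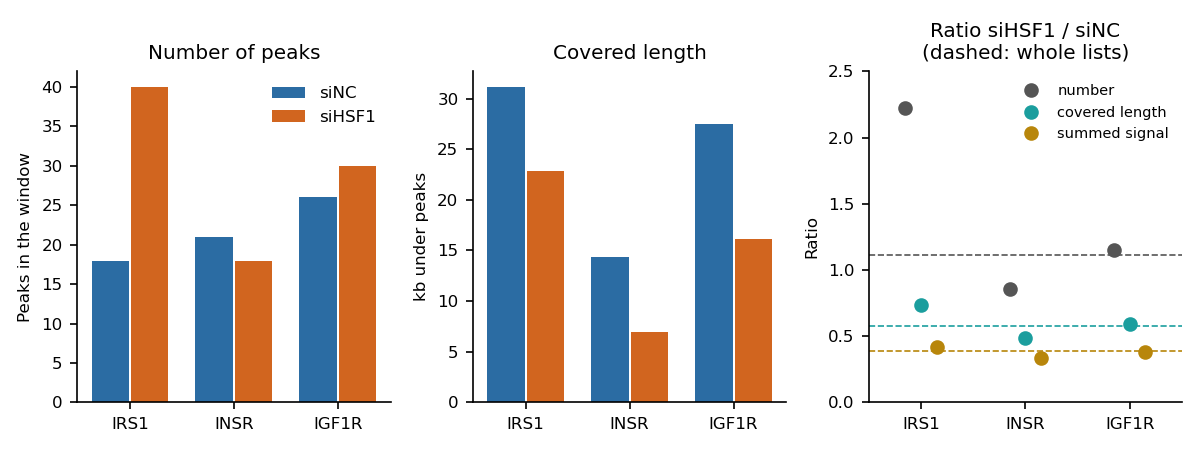
Number of H3K27ac peaks (left), kb under peaks (middle) and the ratio of siHSF1 to siNC (right) for IRS1, INSR and IGF1R, with the whole-list ratios dashed. The number at IRS1 was 18 in siNC and 40 in siHSF1, while the covered length was lower in siHSF1 at all 3 genes.

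The height ratios depend on the scale. Per tag, without the input, the median of all shared regions was -0.53 on the log2 scale, and per tag and fragment length it was 0.24. Pileup over background without the added 1 gave 0.29. Relative to all regions, the IRS1 median was -0.14 by fold enrichment, -0.15 per tag and -0.13 without the added 1, so it was below the whole in each. Relative to all regions, INSR was -0.12 by fold enrichment but 0.15 per tag, and IGF1R was 0.05 by fold enrichment but -0.04 per tag, so neither kept a side. The counting half-width of a ratio of summed pileups was 0.29 for IRS1, 0.38 for INSR and 0.29 for IGF1R, larger than each of these medians. It is only a rough guide, since it leaves out the error of the background and is not the interval of a median.

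Neighbouring peaks separated by at most 12500 bp were joined (stitched) and the joined regions ranked by the summed signal defined above. The study used the ROSE program at the same distance, which was not run here. SE below therefore means a region past the cutoff of this ranking from peak lists, which need not be an SE of the study. In siNC the IRS1 peaks gave a stitched region of 48.2 kb (chr2:227591787-227639990, 13 peaks) at rank 238 of 14420, with 188% of the signal at the cutoff and thus among 666 SEs. In siHSF1 the same stretch fell into regions of rank 757 and 889 of 13377, and the remaining group had rank 652 and 99.5% of the cutoff, just outside 642 SEs. IRS1 was thus among 151 siNC SEs with no siHSF1 SE over them. The gap between the lower 2 groups of peaks was 12.452 kb in siNC and 13.949 kb in siHSF1, on either side of the stitching distance.

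With stitching within 15 kb, a distance added after the data were seen, IRS1 was a single region in each list. It was 74.0 kb long at rank 134 in siNC (252% of the cutoff) and 71.1 kb long at rank 112 in siHSF1 (244%), an SE in both. It was among only 9 of the 151 lost SEs that a siHSF1 SE overlapped at 15 kb, where 172 siNC SEs were lost in all. With stitching within 5 kb, the best IRS1 region was above the cutoff in both lists, at rank 548 (119%) in siNC and 594 (102%) in siHSF1, but these were different groups of peaks, the lowest group in siNC (chr2:227591787-227606689) and the highest in siHSF1 (chr2:227654214-227666465). In other settings the best IRS1 region was an SE in siNC only. With fold enrichment times length as the signal it had 234% of the cutoff in siNC and 84.2% in siHSF1. With peaks of a -log10 q of at least 5 it had 182% and 67.1%. INSR and IGF1R had no SE in either list: the best rank of INSR was 2967 in siNC and 4284 in siHSF1, and that of IGF1R 1427 and 1439.

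**Figure D5:**
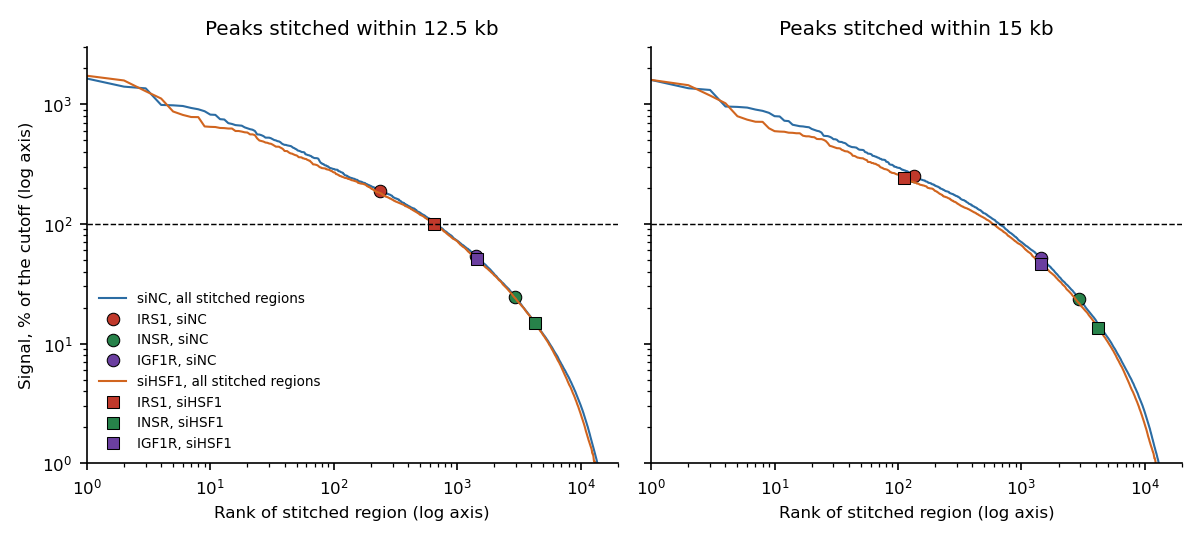
Signal of stitched H3K27ac regions as a percentage of the SE cutoff (y axis, log scale, cutoff dashed) against rank (x axis, log scale), with peaks stitched within 12500 bp (left) and 15 kb (right); circles are siNC and squares siHSF1, and each marks the strongest region of a gene. IRS1 stands at 188% and 99.5% of the cutoff on the left and at 252% and 244% on the right.

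The other members had almost no acetylation peaks. IRS2, the main insulin adaptor of the liver beside IRS1, had 0 siNC peaks in its 80 kb window (chr13:110380000-110460000) and 2 siHSF1 peaks, at chr13:110455022-110455246 (pileup 9, fold enrichment 5.88) and chr13:110455585-110456031 (10 and 6.47). Both were near the median pileup of their list, which was 9. Each formed a region with a siHSF1 peak only, as did 22.6% of all merged regions. The windows of IGF2 (chr11:2140000-2190000) and of IGFBP1 and IGFBP3 (chr7:45910000-45970000) had 0 peaks in both lists. How many windows of these sizes are empty over the whole genome was not worked out. The empty windows thus have no background beside them and are not a trait of these genes. Beyond the windows the nearest siNC peak was 129 kb from that of IGF2 (fold enrichment 13.0), 56.2 kb from that of IGFBP1 and IGFBP3 (3.75) and 141 kb from that of IRS2 (6.74). The nearest siHSF1 peaks were 128 kb, 102 kb and 142 kb away. At these depths a weaker acetylated region would not be listed. The window of IRS1 had the closest outside peaks, 1.36 kb past its end in siNC (fold enrichment 7.91) and 1.02 kb in siHSF1 (4.59), while those of INSR and IGF1R were over 100 kb away.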

How the data were processed

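Members and gene lists were chosen with earlier results of these data known. The study used the peak lists of 4 libraries of Huh7 cells. The RNA-seq samples were not analysed here. The authors called peaks with MACS2, each library alone. The version was 2.1.1.20160309 for ChIP-seq (own input as control, q-value cutoff 0.05) and 2.1.4 for CUT&Tag (without control, p-value cutoff 1e-05). The deposited pileup is a signal, the deposited fold enrichment a ratio, and the deposited -log10 p-values and -log10 q-values come from the caller. Per the file headers the ChIP-seq lists are on hg19 after BWA, while the methods name Bowtie2 and hg38. CUT&Tag lists are on hg38. No position was converted, so ChIP-seq peaks were not placed relative to exons or promoters.

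Overlap meant at least 1 shared bp. Region height was the highest fold enrichment, and a difference was called at 1.5-fold, with a 95% counting interval from the pileups that covers counting error only. Local background was recovered from pileup and fold enrichment. The SE cutoff is the tangent point of the ranked signal curve. Named peaks were, by rule, the 2 of highest fold enrichment per list and gene and the largest fall and rise, with the 10 pathway genes of highest HSF1 fold enrichment. Gene positions are from GENCODE release 44. Python 3.11.15, numpy 2.4.6, pandas 2.3.3 and matplotlib 3.10.9 were used, and the functions were tested on simulated data, where 6 of 6 planted values were recovered. Stricter peaks, other windows, overlaps, scales and stitching distances were tried. With 1 library per condition no test was possible. Some genes of the pathway list are counted but not reported by name here.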

Additional observations from a re-analysis of the deposited data

How the results depend on the processing

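Over 20 results and 77 alternatives, 65 values moved by less than the limit set for them and 12 moved further. A reversal could be counted only for a median height ratio called at 1.5-fold. No median was called, so reversals could not be counted. Medians did change sign with the scale. Without the added 1 the IRS1 median went from -0.14 to 0.16. Per tag and fragment length the INSR median went from -0.12 to 0.38. Per tag the IGF1R median went from 0.05 to -0.57. Each condition had 1 library, so depth and the extension length of tags limit every height, and peaks in lists say nothing of signal under the caller's threshold.

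When fold enrichment had to reach 5, the ratio of peak number was 1.80 at IGF1R, 2.58 at IRS1 and 1.22 at INSR, where it turned in direction. It was thus higher than in the main setting at all of these genes, and no whole-list ratio at that limit was worked out. The IGF1R share of shared regions was 61.5% at a -log10 q of at least 5, and those of IRS1 and INSR were 50% each. The whole-list share was 38.7% in the main setting and was not worked out at that limit. Median log2 height ratios per tag were -0.67 at IRS1 and -0.57 at IGF1R. Per tag and fragment length INSR had 0.38. Without the added 1, IRS1 had 0.16 and IGF1R 0.41. With stitching within 5 kb the IRS1 rank in siNC was 548, and within 15 kb it was 134 in siNC and 112 in siHSF1. The HSF1 peaks of the members numbered 2 at a -log10 q of at least 5 and 1 when a summit had to lie within 1 kb of any transcript start. The cause of these moves was not tested. No paired analysis was possible because each condition had 1 library.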
